A study of Mus musculus with 63 samples.

Results

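Some of the lymph node lymphoma samples described here carried high levels of messenger RNAs known from salivary glands. Among 63 expression arrays, 17 were labelled native, meaning not treated with drug, and were made from 300 ng of RNA. The arrays were chosen by a salivary index, the mean of the deposited log2 values of Bpifa2 and Amy1, by which the 17 were ranked. The 6 highest arrays are called the salivary-high set and the 6 lowest the salivary-low set, and 5 arrays lay between them. The same values chose the sets, so each difference between them is a description with no test.

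All samples came from Emu-myc mice on the C57BL/6 background, in which an immunoglobulin heavy-chain enhancer drives a Myc transgene in B-lineage cells. Per the labels, the 17 samples were lymphoma cells taken from lymph nodes of transgenic mice that had developed lymphoma spontaneously, and their RNA was extracted directly, with no culture. The labels of the 100 ng samples add that the cells were not purified; no label names the node sampled or says what neighbouring tissue was removed. The arrays outside the 17 were 15 native arrays from 100 ng, 29 CTX 4h arrays from 100 ng, sampled 4 h after 300 mg/kg of the alkylating agent cyclophosphamide (CTX), and 2 CTX 4h arrays from 300 ng with no dose in their labels. The treatment text of the 100 ng samples, native ones included, speaks of transplanted recipient mice, so the host of the native 100 ng samples is not settled by the labels. Each array has its own lymphoma number, and the replicate numbers used below only name arrays. The labels do not state whether different arrays stand for different mice, so a p-value here reflects the spread among the samples and nothing beyond it.

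Salivary glands are built of acini, clusters of cells that make and export a protein-rich fluid, and of ducts that modify it. The parotid gland is known for amylase and parotid secretory protein, the products of Amy1 and Bpifa2, while the submandibular gland of mice makes mucins in its acini and growth factors and kallikreins in its granular ducts. A lymph node holds B-cell follicles with follicular dendritic cells, a T-cell zone with its own stroma, and high endothelial venules through which lymphocytes enter. In a bulk sample, fewer cells of a type and less RNA per cell cannot be told apart.

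Promoters are shown for some of the genes with the largest differences, several of which held the same short motif. Those of 2310057J18Rik and Car6, which differed more than Dcpp1, are not shown. The printed windows are therefore no guide to how often the motif occurs. Each is the 60 bases before the RefSeq transcription start on GRCm38.p6, printed on the gene's strand, with capitals marking the string TATAAN, where N is any base, which resembles a box of core promoters bound by the general transcription machinery.

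Bpifa2 (chr2:154008216-154008275, plus strand): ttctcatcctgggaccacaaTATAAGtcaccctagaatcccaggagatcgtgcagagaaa

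Amy1 (chr3:113577751-113577810, minus strand): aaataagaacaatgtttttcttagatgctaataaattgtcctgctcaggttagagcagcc

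Pip (chr6:41847489-41847548, plus strand): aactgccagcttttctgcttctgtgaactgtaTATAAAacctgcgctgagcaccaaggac

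Chia1 (chr3:106113322-106113381, plus strand): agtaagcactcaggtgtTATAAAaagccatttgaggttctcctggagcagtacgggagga

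Smr3a (chr5:88002465-88002524, plus strand): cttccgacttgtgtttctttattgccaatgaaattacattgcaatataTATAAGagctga

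Dcpp1 (chr17:23880816-23880875, plus strand): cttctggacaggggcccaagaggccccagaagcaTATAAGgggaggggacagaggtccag

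Of the 36 genes counted as higher in the salivary-high set, by the rule given below, 29 had a RefSeq window. The motif was present on the gene's strand in 12 of these 29 (41.4%), against 1779 of 27025 genes with a window (6.58%). On the opposite strand it was present in 2 of 29 (6.9%) and 1033 of 27025 (3.82%). The shares were not tested. The counted genes include the rule pair, with Bpifa2 among those holding the motif, and related copies such as the Dcpp genes. They are therefore not independent, and the 27025 are all genes with a window, not the 19938 measured on the arrays. From the first base of the motif to the start there were 40 bases for Bpifa2, 28 for Pip, 43 for Chia1, 12 for Smr3a and 26 for Dcpp1. Neither RefSeq start of Amy1 had the string in its window, which says only that these letters are not there.

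The salivary index spread over more than 9 log2 units among the 17 arrays, from 4.95 in native replicate 7 to 14.39 in native replicate 8. In the salivary-high set it was 14.39 in native replicate 8, 13.80 in 4, 13.77 in 5, 13.49 in 11, 12.50 in 12 and 12.49 in 16. In the salivary-low set it was 8.03 in native replicate 9, 7.95 in 1, 7.93 in 6, 7.04 in 13, 6.28 in 14 and 4.95 in 7. The edges of the sets were not gaps: native replicate 17 lay just outside the high set at 12.40, and native replicate 10 lay just outside the low set at 8.16. The set means were 13.41 ± 0.77 (SD, n = 6) and 7.03 ± 1.23 (SD, n = 6).

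Bpifa2 ranged from 12.86 to 14.90 in the salivary-high set, with a median of 14.33, and from 4.97 to 8.90 in the salivary-low set, with a median of 8.17. Amy1 ranged from 11.15 to 13.97 in the high set (median 12.69) and from 4.94 to 7.17 in the low set (median 6.78). The 2 transcripts parted most in native replicates 3 and 15, both between the sets: native replicate 3 had Bpifa2 at 13.04 and Amy1 at 8.84, and native replicate 15 had 10.99 and 7.35. A log2 value compares arrays for 1 gene and does not rank the 2 genes against each other.

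**Figure D1:**
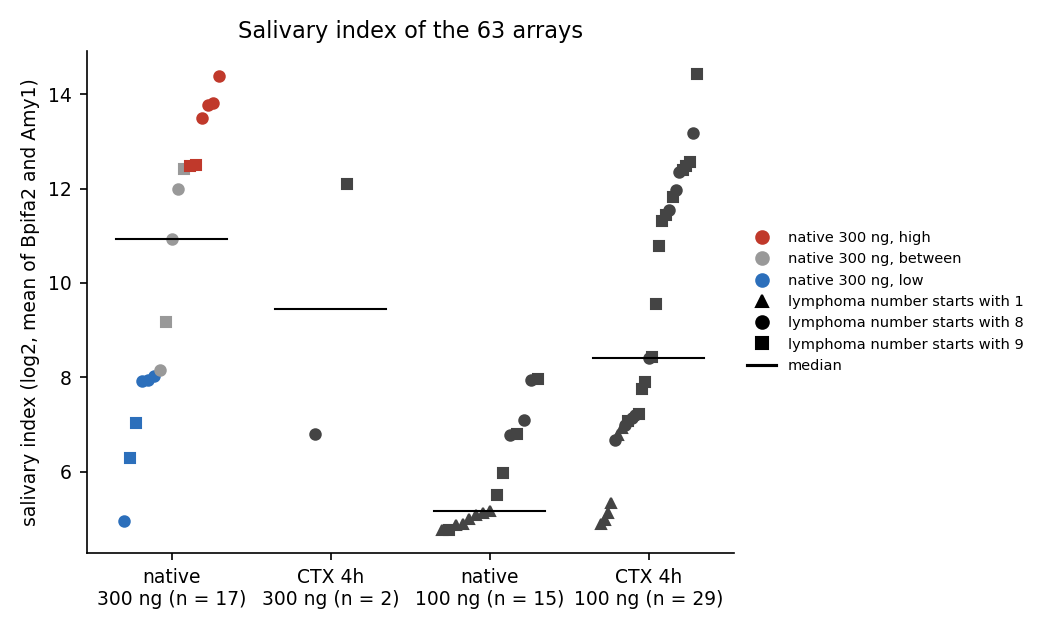
The salivary index (log2, mean of Bpifa2 and Amy1) of each of the 63 arrays by treatment label and RNA input, with the group median as a line and symbols by how the lymphoma number starts. The 6 salivary-high arrays lie between 12.49 and 14.39, the 6 salivary-low arrays between 4.95 and 8.03, and the 15 native 100 ng arrays between 4.76 and 7.97.

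The first digit of the lymphoma number, the only series label the titles carry, did not separate the sets, each of which held 4 arrays with numbers starting with 8 and 2 starting with 9. Across the 17 arrays the mean index was 9.98 ± 2.88 (SD, n = 6) for numbers starting with 9 and 10.49 ± 3.22 (SD, n = 11) for those starting with 8, a difference of -0.51 (exact permutation test, two-sided, p = 0.744, adjusted over 5 tests of the index 0.744). Array medians of the 17 lay between 6.62 and 6.95.

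A wide range was also seen outside these 17 arrays. In the 100 ng arrays, none of which the ranking used, the index reached 14.43 in the CTX 4h group (median 8.42, n = 29) and 7.97 in the native group (median 5.17, n = 15). Of the 29 CTX 4h arrays 3 were at or above the lowest of the salivary-high set, and of the 15 native arrays none was. The CTX 4h mean was 9.13 ± 2.86 and the native mean 5.85 ± 1.16 (SD), a difference of 3.28 (permutation test with 100000 resamples, two-sided, p = 1.7e-04, adjusted 8.5e-04). The groups held different shares of the number series. Within numbers starting with 9 the difference was 4.16 (14 against 5 arrays, exact permutation p = 0.00189, adjusted 0.00473), within those starting with 8 it was 2.22 (9 against 3 arrays, exact permutation p = 0.246, adjusted 0.307), and within those starting with 1 it was 0.69 (6 against 7 arrays, exact permutation p = 0.0414, adjusted 0.069). All 3 differences had the same direction, and after adjustment the numbers starting with 9 alone passed.

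A gene was counted between the sets when its 6 values in one set all lay beyond the 6 of the other and the means differed by at least 1 on the log2 scale. Of 19938 genes, 36 were counted as higher in the salivary-high set (0.181%) and 0 as lower (0%). Without the size limit, 112 genes did not overlap and were higher (0.562%), and 30 did not overlap and were lower (0.15%), with differences from -0.95 to -0.17. The median difference of all genes was 0.008. Of all 19938 genes, 10347 had a higher and 9591 a lower mean in the salivary-high set. These shares stand beside each count of list members with a higher or lower mean below. Members of a list may vary together across the same arrays, so such a count is not one of independent genes. The large differences lay mostly on one side: 145 genes differed by at least 1 upwards, whatever their overlap, and 13 downwards.

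Secreted proteins of saliva made up the top of the list. Pip, which encodes prolactin-induced protein of saliva and tears, ranged from 11.50 to 13.98 in the salivary-high set (median 12.56) and from 2.94 to 6.67 in the salivary-low set (median 5.46), a difference of 7.44 between means of 12.66 ± 1.04 and 5.22 ± 1.56 (SD, n = 6 each). Car6, the secreted carbonic anhydrase of saliva, was 11.93 or more (median 12.52) against 3.57 to 7.27 (median 6.34), a difference of 6.83 between means of 12.84 ± 0.88 and 6.01 ± 1.47. Chia1, an acidic chitinase, ranged from 12.67 to 14.68 (median 13.88) against 5.15 to 7.31 (median 6.53), a difference of 7.30. For each of the 3 genes the lowest high array exceeded the highest low array by more than 4 log2 units.

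Further transcripts of this size were 2310057J18Rik, for which RefSeq lists the synonym Leg1, with a difference of 7.36, and Smr3a, a submaxillary gland androgen-regulated gene, with 6.47. The rule pair itself differed by 6.44 for Bpifa2 and 6.30 for Amy1. Dcpp1, Dcpp2 and Dcpp3 encode demilune cell and parotid proteins and differed by 6.01, 3.68 and 4.87. They are near-identical copies whose probes may detect each other's transcripts, so their separate values are uncertain. Cst10, a cystatin family protease inhibitor, differed by 5.46, and the secretoglobin Scgb2b27 by 4.37.

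Lower on the list stood BC037156, with the RefSeq synonym FDC-SP (3.64), the secreted nuclease Dnase1 (3.40) and Mup5, a major urinary protein family member (2.93). Others were Ggh (2.88), the protease inhibitor family gene Wfdc12 (2.76), the secretoglobin Scgb1b27 (2.55), lactoperoxidase Lpo (2.35) and Prol1, with the synonym Muc10 (2.17). For some of these genes 1 array stood well above the other 5. Mup5 was 12.08 in native replicate 4 and 5.16 to 8.35 in the other high arrays, and Lpo was 11.44 in native replicate 4 and 7.83 to 8.67 in the others. Without native replicate 4 the difference was 2.05 for Mup5 and 1.83 for Lpo.

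**Figure D2:**
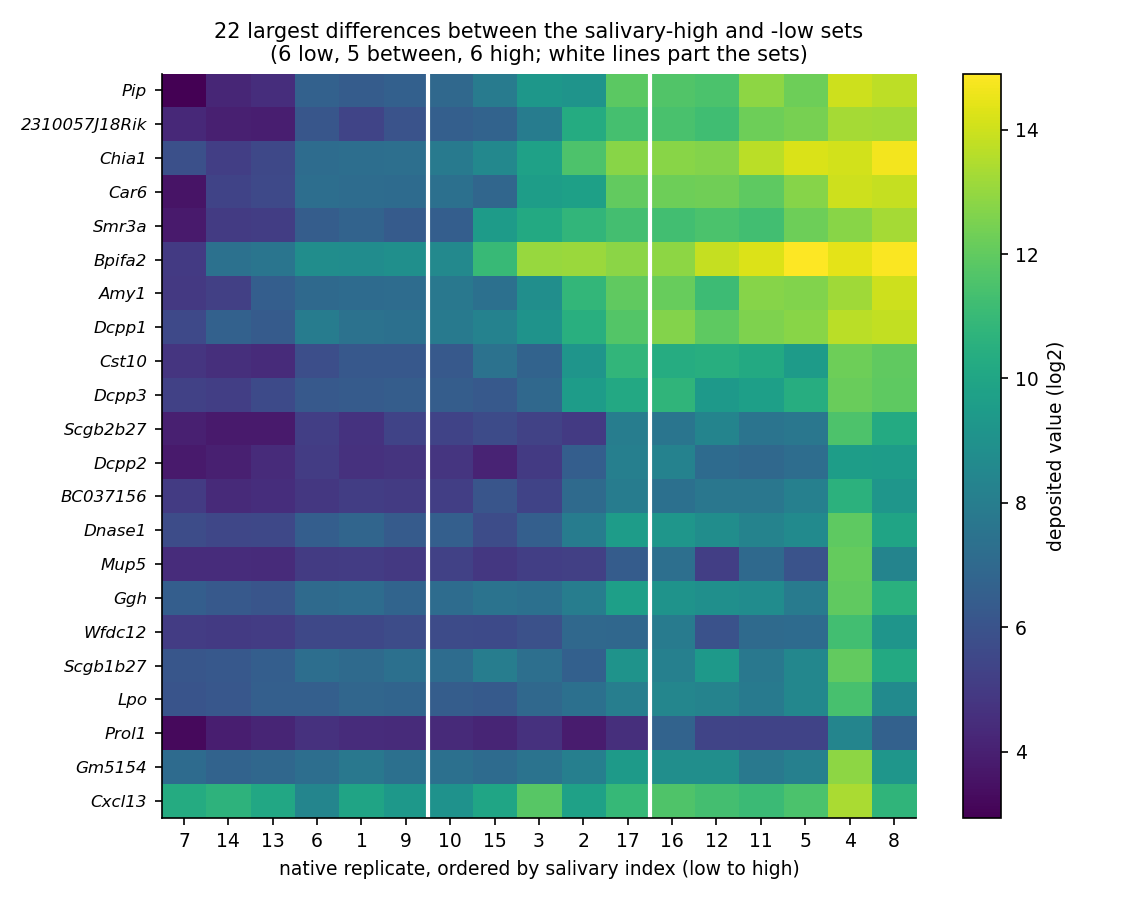
Deposited log2 values of the 22 genes with the largest positive differences among those counted, one row per gene, in the 17 native 300 ng arrays ordered by salivary index from left to right. By the salivary index the arrays between the sets run from 8.16, near the low set, to 12.40, near the high set. Mup5, Lpo and Gm5154 are brightest in native replicate 4.

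The low set was not uniform. Native replicates 9, 1 and 6 had Pip at 6.60, 6.42 and 6.67 and Chia1 at 7.31, 7.25 and 7.19. Native replicates 13, 14 and 7 had Pip at 4.50, 4.22 and 2.94 and Chia1 at 5.54, 5.15 and 5.87. Salivary transcripts were thus lowest in the latter 3 arrays, and the deposited values carry no detection call that would mark any of them as absent.

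Of 30 salivary secretory genes listed, 27 were measured, 13 were counted as higher and 25 had a higher mean in the salivary-high set. Their median difference was 1.35, beside 0.008 for all genes, and 1.11 without native replicate 4. Members of this list that hardly differed were Muc19, the major mucin of sublingual acini, at 5.85 against 5.73, and Smr2, a submaxillary gland gene, at 4.36 against 4.48. The androgen-dependent growth factor and kallikrein products of submandibular ducts differed little: 0 of 11 were counted, the median difference was 0.06, and Egf was 7.22 against 7.16. Their mean level per array was 5.19 to 5.46 in the high set and 5.06 to 5.37 in the low set. Which salivary gland the transcripts came from was not tested. Of 13 pancreatic enzyme genes, listed because pancreas also makes amylase, 0 were counted and the median difference was 0.02, with a range from -0.22 to 0.11.

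Structural genes of glandular epithelium differed less than the secreted products. Of 22 epithelial genes, 22 had a higher mean in the high set, 1 was counted, and the median difference was 0.46, or 0.31 without native replicate 4. Ehf, an ETS transcription factor of epithelia, was the gene counted, at 7.08 to 9.25 (median 7.42) against 6.37 to 6.76 (median 6.44). The keratin genes Krt18 and Krt8 were higher by 1.26 and 1.05 with overlapping sets, and Epcam, an epithelial adhesion gene, was 6.29 against 6.05. Native replicate 14 of the low set had Epcam at 8.23, and without it the difference was 0.67. Among 15 acinar regulators and transport genes 0 were counted. The chloride channel gene Ano1 was higher by 1.03, and Bhlha15, a master factor of secretory cells, differed by -0.46, and by -0.74 without native replicate 4.

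Genes of lymph node stroma and of lymphocytes also stood higher in the salivary-high set. Cxcl13, the chemokine that draws B cells into follicles, was 10.75 to 13.37 (median 11.42) against 8.38 to 10.67 (median 10.02), and the sets did not overlap. Its receptor gene Cxcr5 had a lowest value of 6.58 (median 6.89) in the high set and a highest of 6.57 (median 6.09) in the low set, so that the sets only just failed to overlap. Glycam1, a mucin-like ligand made by high endothelial venules, was 9.85 to 13.23 (median 11.18) against 6.27 to 10.54 (median 8.93), with overlap.

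All 9 measured genes of the lymph node stroma list had a higher mean in the salivary-high set, 1 of them counted, with a median difference of 1.29 (1.06 without native replicate 4). Ccl19, a T-zone chemokine, was higher by 1.44, and Cr2, the complement receptor of follicular dendritic cells and mature B cells, by 1.41. All 20 measured T and NK cell genes had a higher mean, 0 were counted, and the median difference was 0.73 (0.67 without native replicate 4). Cd3e, a T-cell receptor subunit, was 8.61 to 10.53 (median 9.27) against 7.23 to 9.23 (median 8.04), and the top of the low set was native replicate 1. Of 13 mature B-cell genes, 11 had a higher mean and 1 was counted, with Ighm higher by 2.31 and Fcer2a, the CD23 gene, by 1.39. Whether these B-cell transcripts came from the lymphoma cells or from other B cells of the node was not tested. Genes counted as higher outside every list included Clu (1.58), Tmem176b (1.21), Cnn2 (1.20) and the kinase gene Fyn (1.05).

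The salivary index and the mature B-cell genes Ighm and Fcer2a did not rank the arrays alike. Native replicate 8, with the highest index, had Fcer2a at 7.05, the lowest of the high set, as was its Ighm value, while native replicate 17, between the sets, had Ighm at 11.36, above all 6 high arrays. Plasma cell genes had a median difference of 0.10, macrophage genes 0.18 (0.11 without native replicate 4), endothelial genes 0.29 (0.14) and adipocyte genes 0.29 (0.18), with Adipoq, the adiponectin gene, at 8.76 against 7.93. For the other tissue and cell lists the medians were 0.38 for neutrophil, 0.30 for smooth muscle (0.18 without native replicate 4), 0.18 for dendritic and mast cell, 0.13 for fibroblast, 0.09 for nerve and Schwann and 0.05 for erythroid genes, and 0 genes of these lists were counted. Leaving out each of the 12 arrays in turn moved the adipocyte median between 0.08 and 0.49 and the fibroblast median between 0.06 and 0.20. Skeletal muscle genes had a median difference of -0.36 with 23 of 26 lower, and of -0.12 with 19 of 26 lower without native replicate 13 of the low set. The muscle creatine kinase gene Ckm was 10.12 in that array and 6.83 to 7.84 in the other 5 low arrays.

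**Figure D3:**
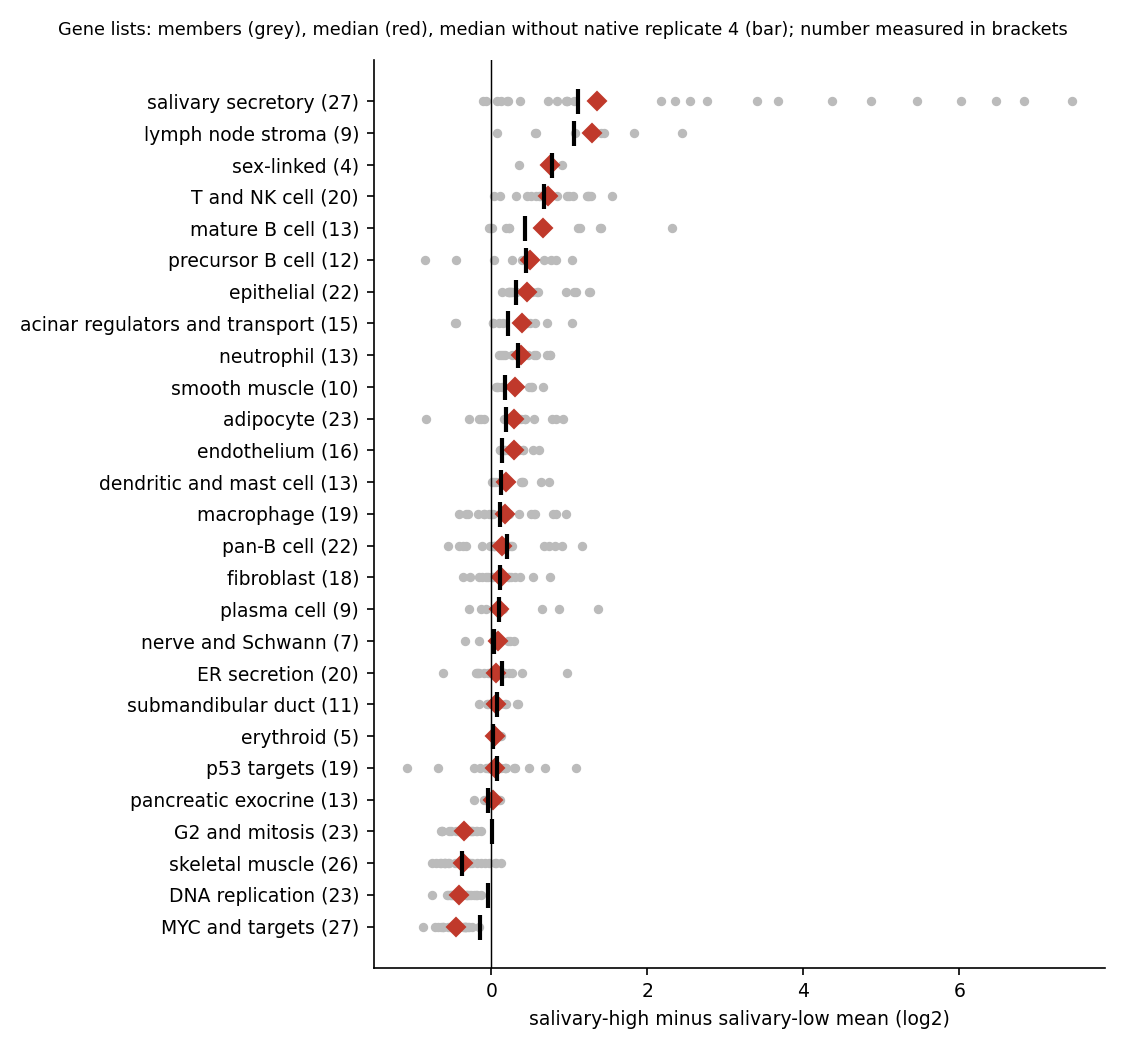
Difference of set means (log2) for the measured members of 27 gene lists, with the median of each list and its median without native replicate 4. Salivary secretory genes have the widest spread and a median of 1.35, lymph node stroma 1.29, and the medians of MYC targets, G2 and mitosis and DNA replication genes move toward 0 without native replicate 4.

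Genes of the lymphoma cells themselves were not counted as lower in the salivary-high set. Myc, the transgene's product and the endogenous gene together, was 10.64 to 13.63 (median 13.11) against 13.01 to 13.45 (median 13.23). The lowest value, 10.64, was native replicate 4, and the other 5 high arrays began at 12.87. The difference was -0.45 with native replicate 4 and -0.02 without it. Cd79a, a B-cell receptor subunit that marks the labelled cell type, was 12.31 ± 0.48 against 12.20 ± 0.41 (SD, n = 6 each). It was lowest among the 17 in native replicate 15, between the sets, at 8.38.

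Mitosis and replication genes were lower mostly through native replicate 4, while most MYC target genes stayed lower without it, by less. All 27 measured MYC and target genes had a lower mean in the high set, as did 23 of 23 G2 and mitosis genes and 23 of 23 DNA replication genes, with median differences of -0.45, -0.36 and -0.42, and 0 genes of these lists were counted. Without native replicate 4, the counts of lower members were 26 of 27, 10 of 23 and 17 of 23, and the medians were -0.15, 0.01 and -0.04. Nop58, a ribosome biogenesis gene, was 7.86 in native replicate 4 and 10.23 to 11.18 in the other 5 high arrays, against 10.74 to 11.49 in the low set. Bub1, a mitotic checkpoint kinase gene, was 7.35 in native replicate 4, 10.05 to 11.21 in the other 5, and 9.98 to 11.44 in the low set.

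Native replicate 4 stood apart over the whole array as well. Its mean correlation with the other 16 arrays was 0.931, while each of those lay at 0.971 or above. Native replicate 8 had an index of 14.39, Myc at 12.87 and a mean level of the MYC list of 10.76. Both MYC values were the lowest of the 5 high arrays other than native replicate 4. Native replicate 4 had an index of 13.80, Myc at 10.64 and a MYC list level of 9.34. Its mean level of lymph node stroma genes was 10.17 (8.24 to 10.03 in the other 5 high arrays), of endothelial genes 9.06 (8.01 to 8.34) and of salivary secretory genes 9.55 (7.67 to 8.75), the highest of the set for each of the 3 lists. The part of these tissues in its low MYC and proliferation values was not tested.

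**Figure D4:**
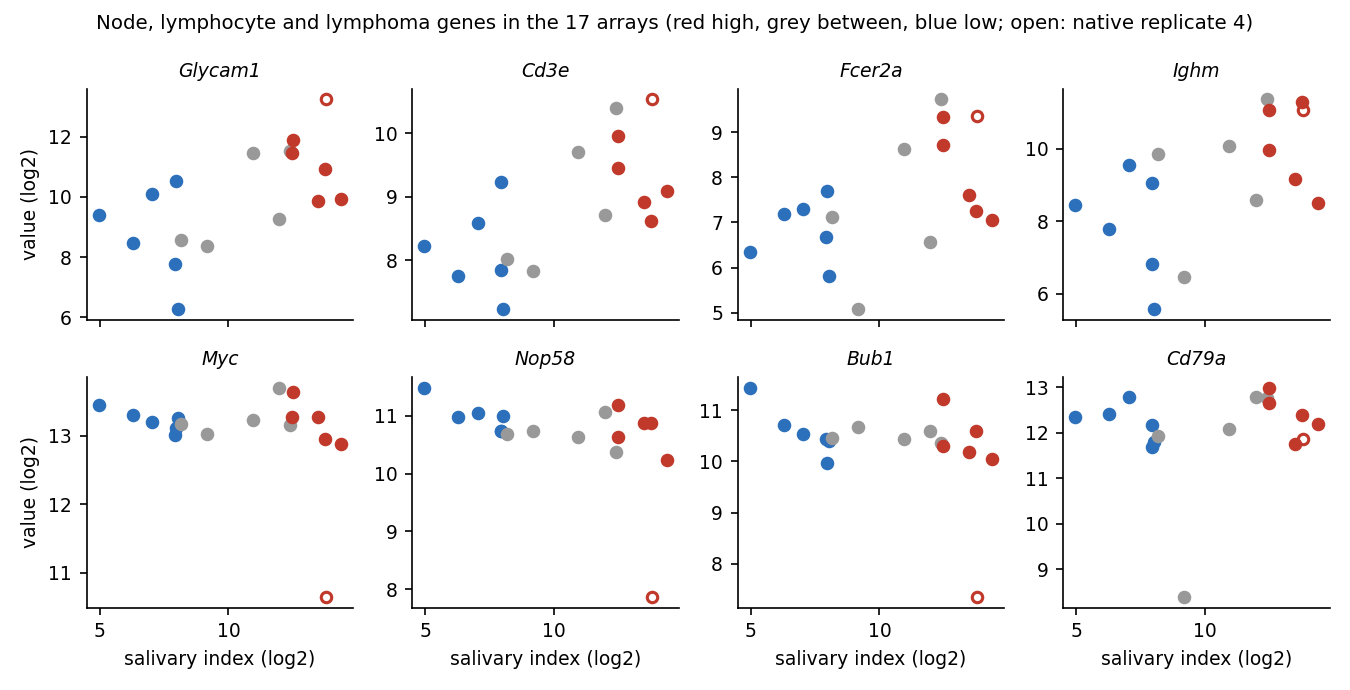
Deposited log2 values of 8 genes against the salivary index in the 17 native 300 ng arrays, by set, with native replicate 4 as an open circle. Glycam1, Cd3e, Fcer2a and Ighm are mostly higher to the right, with overlap, Myc, Nop58 and Bub1 are lower in native replicate 4 than in any other array, and Cd79a is low in native replicate 15.

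Other genes of lymphoma biology were compared in the same way. Igll1, the surrogate light chain gene of precursor B cells, was 5.88 to 11.53 in the high set and 5.26 to 11.60 in the low set. Precursor B-cell genes had a median difference of 0.49 and pan-B-cell genes 0.13, with 0 counted in either list. Leaving out each of the 12 arrays moved these medians between 0.22 and 0.73 and between 0.01 and 0.21. Cdkn2a, which encodes a tumour suppressor induced by oncogenic Myc, was 6.54 to 8.03 (median 6.92) against 7.37 to 9.59 (median 8.10), a difference of -1.08 with overlapping sets. Its highest values of the 17 were in native replicates 3 and 2, between the sets, at 10.44 and 10.15. Cox19, a gene for assembly of cytochrome oxidase, named after its values were seen, was the largest difference among the 30 that were lower without overlap. It was 6.29 to 8.12 (median 7.90) against 8.39 to 8.73 (median 8.62). Median differences were 0.04 for p53 target genes, a list that also held Cdkn2a, and 0.06 for genes of folding and export in the endoplasmic reticulum. Xist, the transcript of the inactive X chromosome, was 10.12 to 13.90 in the high set and 9.44 to 13.63 in the low set. The 4 sex-linked genes measured had a median difference of 0.75 with 0 counted, or 0.28 without native replicate 8. The Y-linked values of that array were above those of the other high arrays. This list pools Xist with Y-linked genes, so its median does not describe sex. Without native replicate 8 the differences were 1.19 for Xist, 0.19 for Eif2s3y, -0.18 for Kdm5d and 0.36 for Uty.

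Whether the same genes follow the index elsewhere was tested in the 44 arrays from 100 ng, which the ranking did not use. A limma model fitted the slope of each gene on the index with treatment as a covariate, and p-values were Benjamini-Hochberg adjusted over 19936 genes, the rule pair left out. At an adjusted p under 0.05, 32 genes had a positive slope (0.161%) and 2 a negative one (0.01%). A slope of 1 means that the gene's log2 value moves as much as the index itself.

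Several of the genes with the largest differences between the sets had slopes near 1. The slope was 0.96 ± 0.04 for Chia1 (SE, limma adjusted p = 4.47e-23), 0.95 ± 0.04 for Smr3a (adjusted p = 2.74e-23), 0.93 ± 0.05 for 2310057J18Rik (adjusted p = 6.7e-20) and 0.96 ± 0.06 for Pip (adjusted p = 5.43e-16). Car6 (0.84), Dcpp1 (0.83), Cst10 (0.70), Dcpp3 (0.61), BC037156 (0.46), Dnase1 (0.43) and Lpo (0.31) followed with smaller slopes, each past the threshold. The median slope of the 27 salivary secretory genes was 0.19. Of the 34 genes counted between the sets other than the rule pair, 19 were called with a positive slope, from 0.13 to 0.96. Of 27 salivary secretory genes 13 were called, all positive.

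The node and lymphocyte genes that were counted between the sets were not called here. Of the other 15 counted genes, 6 had positive and 9 negative slopes that did not pass. Cxcl13 had a slope of -0.05 ± 0.07 (SE, limma adjusted p = 0.685), Cxcr5 -0.08 ± 0.06 (adjusted p = 0.518), Clu -0.05 ± 0.06 (adjusted p = 0.653) and Fyn -0.09 ± 0.04 (adjusted p = 0.261). Of 9 stroma, 20 T and NK cell and 13 mature B-cell genes, 0 were called in either direction, and the same held for 27 MYC and target genes, 23 mitosis and 23 replication genes. Their median slopes were negative: -0.05 for stroma, -0.05 for T and NK cell and -0.02 for mature B-cell genes. For MYC and target, mitosis and replication genes they were -0.05, -0.06 and -0.05, beside -0.002 for all genes. Unadjusted, 1315 genes with a positive and 2112 with a negative slope had a limma p under 0.05 among all genes tested. Myc itself had a slope of -0.03 ± 0.03 (SE, adjusted p = 0.486). The difference in slope between the 300 ng sets and the 100 ng arrays was not tested.

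Of the 32 called genes, 13 were not counted between the sets, and all 32 had a higher mean in the salivary-high set. Arrays with numbers starting with 1 had low indices, with medians of 5.01 in the native and 5.24 in the CTX 4h group. With the first digit of the number as a further term, 15 of the 19 genes counted in the sets were still called, but 1 of these 13 (Fads2b, limma adjusted p = 0.0488) and neither of the 2 with negative slopes. The 4 counted genes lost were Scgb2b27, Mup5, Plet1 and Etv1. The 13, without that term, included Pigr, the receptor that carries IgA across glandular epithelium (slope 0.08), Ccl28, a chemokine of mucosal glands (0.11), the proline-rich protein gene Prpmp5 (0.21), the ribonuclease gene Rnase1 (0.16) and Pax9, a transcription factor gene (0.11). Perp, a junction gene of epithelia and a p53 target, was the epithelial gene called (0.13). The 2 genes with negative slopes were Dhdh (-0.13) and 1700084J12Rik (-0.08). Both differed by less than 0.2 between the sets.

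**Figure D5:**
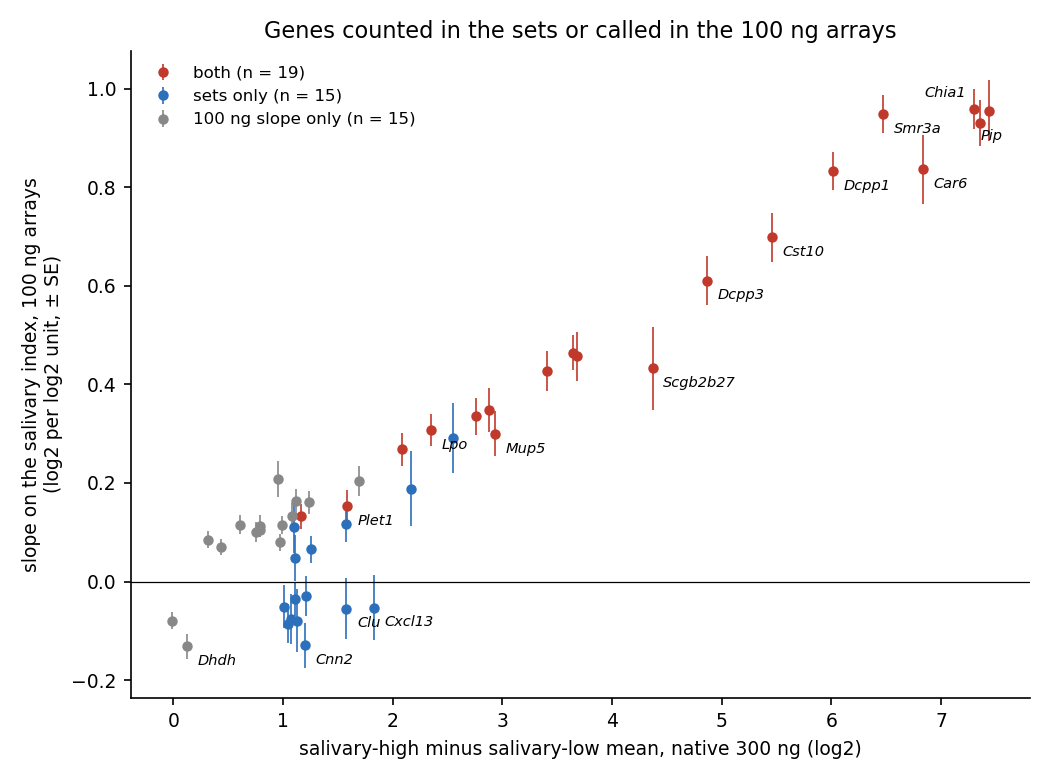
Slope on the salivary index in the 44 arrays from 100 ng (± SE) against the difference between the sets in the native 300 ng arrays (log2), for genes counted in the sets, called in the 100 ng arrays, or both. The 19 genes in both groups run from small to large on both axes, while Cxcl13, Clu and Cnn2 lie below a slope of 0.

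The slopes were also fitted in parts of the 44 arrays. In the 29 CTX 4h arrays alone 29 genes were called positive, 28 of them among the 32, and in the 15 native arrays alone 11 were, all among the 32. Among numbers starting with 8 alone 8 genes were called and among those starting with 9 alone 13, again all among the 32. A term for the index by treatment was called for 0 of 19936 genes by limma, with 5084 at an unadjusted p under 0.05 and a smallest adjusted p of 0.166.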

How the data were processed

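The authors deposited log2 expression values of 63 Affymetrix gene arrays, 35557 probe sets each. Per the submitters' processing notes, Partek 6.5 was used with RMA (background correction, normalization and summary of probes), which shrinks the differences of dim genes. The arrays normalized together are not given in the sources used here, and the number of arrays limits the precision. The platform annotation gave 21789 probe sets 1 symbol, 1621 several and 12147 none; 21698 of the first matched a RefSeq gene ID of GRCm38.p6, used for names. For each of 19938 genes the single-symbol probe set brightest on average across the 63 arrays was taken.

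Groups came from the treatment label and RNA input. The members, the 28 lists and the tests were chosen with earlier results of these data known. Slopes were fitted with limma 3.58.1 in R 4.3.3 (lmFit, eBayes, two-sided) and the script was tested on simulated data. Index tests were permutation tests. Named are the rule pair, the 15 largest positive and up to 10 negative differences among counted genes, the 5 smallest p in each slope direction, per list the 4 or fewer members that differed most, and Myc, Ighm, Igll1, Cd79a, Cdkn2a, Epcam, Adipoq, Ckm, Ccl21a and Xist. Other genes named were chosen after their values were seen. Ccl21a, among 45 of 486 list entries, had no single-symbol probe set. Alternatives varied set size, ranking genes, scale, probe sets, filters, samples and model terms. Figures used matplotlib 3.10.9.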

Additional observations from a re-analysis of the deposited data

Results flagged for a closer look

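Within each set of 6 arrays, an array was singled out where its gap to the nearest other array, divided by the whole range, exceeded Dixon's 95% critical value for 6 values. Over 127 genes and 254 groups of values 37 were found. Chance alone gives about 1 in 20 groups for genes chosen without regard to these values. Many of the 127 were named for large differences between the same sets, which a single outlying array can enlarge. Genes of the same sample are also not independent, so the 37 cannot be set against that rate.

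Of the 37, 20 were native replicate 4 in the salivary-high set. It was below the others for Myc (10.64), the nucleolar and MYC-regulated genes Nop58 (7.86), Dkc1 (7.37) and Gnl3 (8.852), the transferrin receptor gene Tfrc (7.121), for the mitosis genes Bub1 (7.347), Kif11 (8.131) and Top2a (8.784), and the replication genes Pole (7.319), Prim1 (7.294) and Rrm1 (9.153), and for Mzb1 (9.003), a gene of plasma and marginal zone B cells. It was above the others for Cxcl13 (13.37), Apoe (13.83), Dcn (12.95), Pecam1 (10.82), Cldn5 (9.602), Xbp1 (11.88), Creb3l1 (8.651) and Perp (9.809). Native replicate 8 stood above the other high arrays for the class II regulator gene Ciita (10.02) and the Y-linked genes Eif2s3y (7.186), Kdm5d (8.072) and Uty (7.524).

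In the salivary-low set, native replicate 13 was above the others for the muscle genes Ckm (10.12), Actn3 (9.462), Atp2a1 (10.32) and Myh4 (8.579) and for Ucp1 (10.49), a brown fat gene, and below them for Cd74 (11.34). Native replicate 1 was above the others for Bmp2k (9.269), Clec9a (6.624) and Ehf (6.765), native replicate 7 for Kif11 (12.32) and Rrm1 (12.51) and native replicate 14 for Epcam (8.227). Native replicate 9 was below the others for Kit (6.263).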

How the results depend on the processing

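The count of 36 genes higher and 0 lower between the sets became 19 higher with 8 against 8 arrays, 21 and 1 ranked by Bpifa2 alone, 58 and 2 after quantile normalization, 21 among bright genes, and 77 and 17 at a size of 0.5. Lower genes numbered 4 with 5 against 5 arrays, 2 ranked by Amy1, 1 by the secretory list and 2 within numbers starting with 8. Leaving out each of the 12 arrays gave 27 (without native replicate 4) to 79 (without 1) higher, 72 without 11, and 0 to 3 lower. The cause of these shifts was not tested. By the centred secretory list the index difference was 2.45 in place of 6.37.

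The 32 positive and 2 negative slopes became 11 and 0 in native arrays alone, 16 and 0 with the number's first digit as a term, 502 and 836 with no treatment term, 49 and 11 by Amy1 alone, 7 and 1 among bright genes, 8 and 0 within numbers starting with 8 and 13 and 0 within those starting with 9. Negative slopes numbered 1 without the 2 arrays farthest from the median index, over all 46 arrays, by Bpifa2 alone, with a common median and with trend and robust eBayes. Leaving out each of the 44 arrays gave 28 to 39 positive and 1 to 7 negative (39 and 5 without native replicate 25, 37 and 7 without CTX 4h replicate 15). The treatment difference of the index was 2.22 within numbers starting with 8 and no longer passed. A fit of numbers starting with 1 alone was not run. No paired analysis was possible because each array has its own lymphoma number and the replicate numbers only name arrays. Settings for numbers starting with 8 or 9 in the 100 ng arrays, the treatment difference of the index within each number series, the lists and single genes without 1 array, the index of the 17 arrays by 1 gene and leaving out each of the 44 were chosen after seeing the data. Values near the array's lower end have no detection call, which limits differences of dim genes.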
